A study of Mus musculus with 20 samples.

Results

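The 8 tight junction genes followed here were Ocln, Marveld2, Cldn3, Cldn4, Cldn6, Cldn7, Tjp3 and Crb3, named as a list and found by symbol, out of 21938 protein-coding genes of the GENCODE M21 annotation. For each gene, the H3K27me3 peaks lying at most 5 kb from a transcription start site (TSS) were listed, and KLF4 peaks and JMJD3 positions within the gene and 50 kb on each side. The peaks were those of ChIP-seq, in which DNA bound to an immunoprecipitated protein or histone mark is sequenced, and 14 of 20 samples had a peak list. Of these, 10 libraries were for H3K27me3. Wild-type (WT) cells carried the strain label C57BL/6J-OG2 and Jmjd3 knockout (KO) cells the label C57Bl6J, so strain and genotype cannot be told apart. Mouse embryonic fibroblasts (MEFs) of each genotype were sampled without virus, and at day 5 and day 10 after infection with viral Oct4, Sox2, Klf4 and c-Myc, together OSKM, in medium with vitamin C, together with either an empty FLAG control vector or exogenous JMJD3. The OSKM and JMJD3 genes were virus-borne and not driven from their own loci, and cells were analysed as mixed populations. For KLF4 there were day 5 WT libraries with FLAG and with JMJD3. FLAG-tagged JMJD3 was measured at day 5 in WT cells with OSKM or with less KLF4 virus (OSlowKM). Every group held 1 library, so no difference below had a replicate check, and no test was made.

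Tight junctions seal the space between neighbouring epithelial cells. Occludin (Ocln), tricellulin (Marveld2) and the claudins span the membrane, the claudins forming the sealing strands and occludin and tricellulin sitting in the strands and at the corners where several cells meet, while Tjp3 (ZO-3) is a scaffold under the membrane and Crb3 a small membrane protein that sets apical polarity. Fibroblasts lack such junctions, and their genes are switched on when fibroblasts turn epithelial early in reprogramming. H3K27me3 is the repressive histone mark laid down by Polycomb complexes, JMJD3 (Kdm6b) is an enzyme that removes it, and KLF4 is the reprogramming factor known for activating epithelial genes.

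The cells were first checked against markers. Among 12 fibroblast genes, 1 had an H3K27me3 peak in MEF WT and 0 in MEF KO, beside 14.6% and 10.3% of all protein-coding genes, and 7 and 6 of 8 epithelial genes had one. In the other 8 libraries 1 to 4 of the fibroblast genes were marked, the 4 being Col1a1, Thy1, Pdgfra and Postn in day 10 KO with JMJD3, and 3 to 6 of the epithelial genes. Of 8 pluripotency genes, 5 were marked in MEF WT, 3 in MEF KO and 2 to 4 in the other 8 libraries, Pou5f1 being marked in 3 of the 10. Read numbers behind the lists were not used here. The H3K27me3 lists held 3045 to 6954 peaks, the shortest being day 10 WT with JMJD3, and what sequencing depth contributed to their length was not tested. Neither the absence of JMJD3 in KO cells nor any transcript level can be checked from these lists.

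In MEF WT, 7 of the 8 genes carried an H3K27me3 peak, against 14.6% of all protein-coding genes. The gene without one was Marveld2. In MEF KO 5 genes had a peak (10.3% of all genes), Cldn4, Tjp3 and Marveld2 having none. At day 5, 6 genes had a peak in WT with FLAG (14.7% of all genes), in WT with JMJD3 (11%) and in KO with FLAG (13.7%), and 5 had one in KO with JMJD3 (13%). At day 10, 5 genes had a peak in WT with FLAG (12.1%), 3 in WT with JMJD3 (8.26%), 4 in KO with FLAG (12.8%) and 4 in KO with JMJD3 (11.7%). In each library the share among the 8 genes lay above that of all genes. The genes were listed with earlier results of these data known, so their excess is a description.

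**Figure D1:**
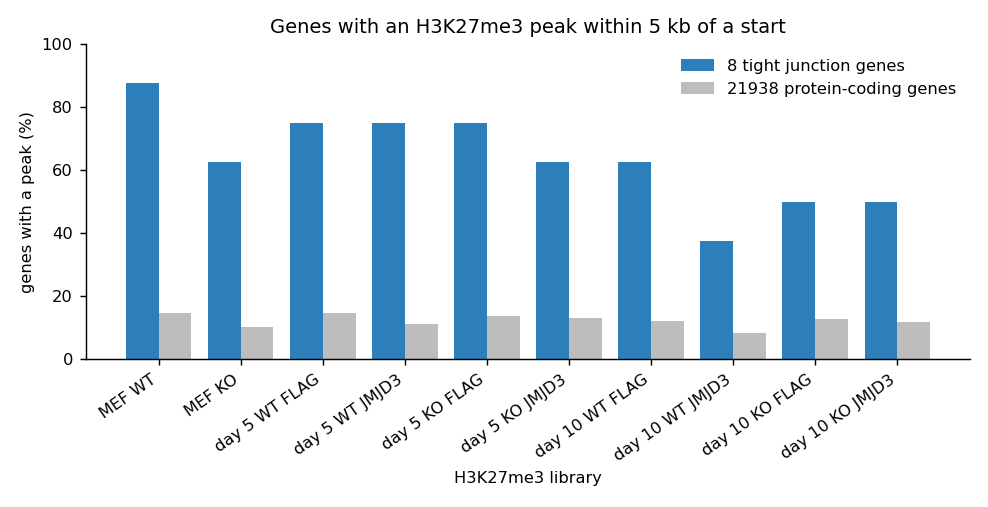
Share of genes (%, y axis) marked by H3K27me3 at most 5 kb from a TSS in each of the 10 libraries (x axis), for the 8 tight junction genes (blue bars) and all 21938 protein-coding genes (grey bars). The blue bars go from 87.5% in MEF WT to 37.5% in day 10 WT with JMJD3, the grey ones from 14.7% to 8.26%.

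The genes fell into those marked throughout and those marked in part. Ocln, Cldn7 and Crb3 had a peak in all 10 lists, as did 4.68% of protein-coding genes. Cldn3 had one in 8 lists, Cldn6 in 7, Cldn4 in 5 and Tjp3 in 1, counting peaks within 5 kb. Marveld2 had none in any list, like 77.6% of protein-coding genes. In 37 of the 51 gene and library combinations with a peak, the best-scoring peak covered a TSS. Peaks are ranked below by the share of peaks of the same list that score lower (the percentile), because the scale of the score was not stated and may differ between lists. A percentile also depends on how long the list is, so differences in percentile between libraries are checked with both lists reduced to the same number of best-scoring peaks.

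**Figure D2:**
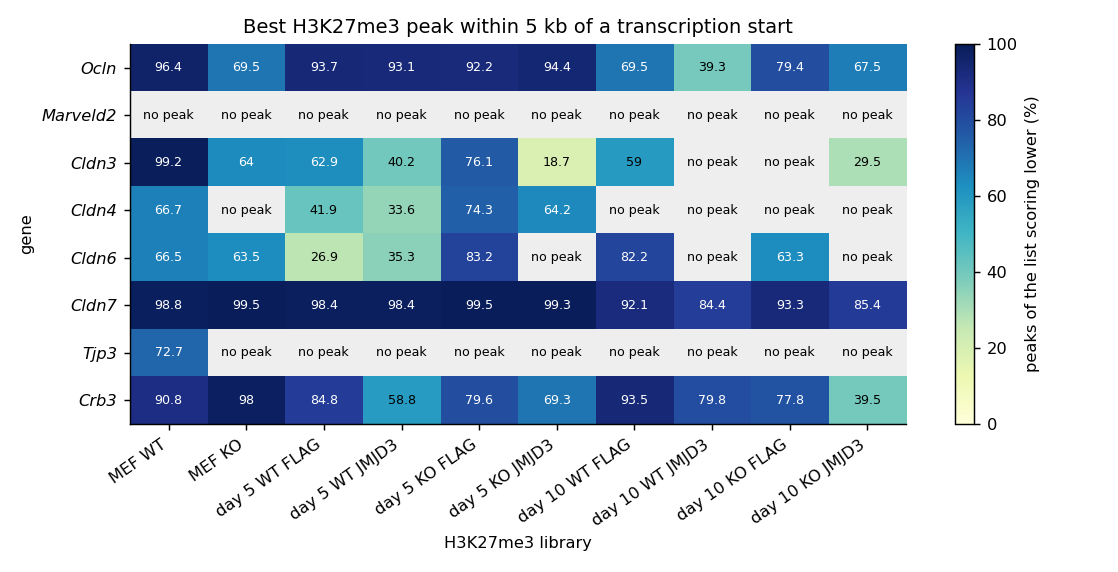
Percentile of the best-scoring H3K27me3 peak at each gene, at most 5 kb from a TSS, for the 8 genes (rows) in the 10 libraries (columns). Dark cells are peaks near the top of their list and grey cells mark genes without a peak. Cldn7 is dark in every column, from 84.4 to 99.5, and Marveld2 is grey in every column.

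Ocln, which encodes the tetraspan strand protein occludin, lies at chr13:100496507-100552718 on the minus strand (GRCm38, as are all coordinates given). Its score was 86 in MEF WT and 15.2 in MEF KO. At day 5 it was 64.88 in WT with FLAG, 49.82 in WT with JMJD3, 44.61 in KO with FLAG and 88.68 in KO with JMJD3. The day 10 scores, in the same order, were 14.87, 9.0, 19.91 and 16.1. By rank, the Ocln peak scored above 96.4% of the list in MEF WT, above 92.2% to 94.4% in the 4 day 5 lists, and above 39.3% to 79.4% in the 4 day 10 lists, lowest in WT with JMJD3. The centre of the peak lay in an intron, 144 to 884 bp inside the gene, and the peak covered a TSS in 7 of 10 lists. The RefSeq promoter window, 250 bases before to 50 after the transcript start, is printed for the downstream start of Ocln (chr13:100552449-100552748, minus strand), because H3K27me3 peaks overlapped it in 7 lists and KLF4 peaks in 0. Capitals mark CCACNCCC (a KLF-type string) or CAGGTG (the E-box that SNAI and ZEB repressors bind), on either strand. It holds 1 KLF-type string and 2 E-boxes.
Ocln: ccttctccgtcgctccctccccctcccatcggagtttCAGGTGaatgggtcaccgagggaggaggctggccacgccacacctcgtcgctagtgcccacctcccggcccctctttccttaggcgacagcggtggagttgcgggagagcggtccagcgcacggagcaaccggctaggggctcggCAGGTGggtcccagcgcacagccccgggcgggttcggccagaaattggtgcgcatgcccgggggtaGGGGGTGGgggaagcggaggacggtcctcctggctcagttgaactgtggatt

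Marveld2, at chr13:100595957-100616971 on the minus strand, is the neighbour of Ocln, 43.2 kb upstream of it. The nearest H3K27me3 peak to its TSSs was the Ocln peak in each of the 10 lists, 63.9 to 64.6 kb away. KLF4, in contrast, was called on the Marveld2 TSS in both lists, at chr13:100616594-100617105 with FLAG and chr13:100616741-100617157 with JMJD3. The promoter window (chr13:100616895-100617194, minus strand) is printed because both KLF4 peaks overlapped it. It holds 1 KLF-type string and 1 E-box.
Marveld2: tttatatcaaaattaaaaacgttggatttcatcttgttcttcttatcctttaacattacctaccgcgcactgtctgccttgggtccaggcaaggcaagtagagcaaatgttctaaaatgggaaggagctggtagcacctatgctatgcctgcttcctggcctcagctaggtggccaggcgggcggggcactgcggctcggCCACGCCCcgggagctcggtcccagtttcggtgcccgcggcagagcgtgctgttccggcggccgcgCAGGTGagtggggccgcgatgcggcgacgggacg

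The claudins differed among themselves. Cldn7 (chr11:69964779-69967885, plus strand), a claudin of many simple epithelia, had the highest percentile of the 8 genes in 8 of 10 lists, the exceptions being MEF WT, where Cldn3 was higher, and day 10 WT with FLAG, where Crb3 was higher. Its score was 119.03 in MEF WT and 77.13 in MEF KO. At day 5 it was 105.46 in WT with FLAG, 86.23 in WT with JMJD3, 107.85 in KO with FLAG and 190.33 in KO with JMJD3. The day 10 scores, in the same order, were 30.99, 19.63, 33.4 and 28.14. Its percentile was 98.4 or above in the MEF and day 5 lists and between 84.4 and 93.3 at day 10. Cldn7 was also the only one of the 8 genes at which KLF4 and H3K27me3 peaks overlapped. The KLF4 peaks at chr11:69965413-69965617 (FLAG) and chr11:69965314-69965659 (JMJD3) each overlapped the H3K27me3 peak of all 10 lists. KLF4 was measured in day 5 WT cells alone, so the overlap with MEF, KO and day 10 lists is one of position only. Among genes with an H3K27me3 peak in day 5 WT cells, 3.68% had a KLF4 peak on it with FLAG and 3.73% with JMJD3, against 1 of the 6 tight junction genes with a peak in each. Separate libraries cannot show whether both were on the same DNA molecules. The promoter window of the downstream start (chr11:69965171-69965470, plus strand) is printed for this overlap. It has 0 KLF-type strings and 2 E-boxes.
Cldn7: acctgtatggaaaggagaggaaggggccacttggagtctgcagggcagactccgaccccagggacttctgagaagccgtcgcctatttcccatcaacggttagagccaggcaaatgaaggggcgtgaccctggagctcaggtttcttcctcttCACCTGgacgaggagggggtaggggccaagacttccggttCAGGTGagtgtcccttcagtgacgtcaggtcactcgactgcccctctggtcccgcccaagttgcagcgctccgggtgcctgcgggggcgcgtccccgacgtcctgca

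Cldn3 (chr5:134986214-134987472, plus strand) and Cldn4 (chr5:134945119-134946934, minus strand) are sealing claudins whose genes lie 39.3 kb apart. Cldn3 had the highest-ranked peak of the 8 genes in MEF WT, scoring 130.36 and rank 54 of 6954. In MEF KO it scored 13.62 and ranked 1476 of 4113. At day 5 its score was 18.78 in WT with FLAG, 9.96 in WT with JMJD3, 24.31 in KO with FLAG and 7.72 in KO with JMJD3. At day 10 a peak was called in WT with FLAG (12.2) and in KO with JMJD3 (8.4) and in neither other list. By rank, the Cldn3 peak was at percentile 99.2 in MEF WT, at 18.7 to 76.1 in 7 lists and missing from 2. Cldn4 had a peak in MEF WT (18.99) and in the 4 day 5 lists, scoring 11.03 in WT with FLAG, 9.13 in WT with JMJD3, 23.19 in KO with FLAG and 19.85 in KO with JMJD3. It had no peak in MEF KO or in any day 10 list, where the nearest one was 38 to 143 kb away. Where called, it covered the TSS in 5 of 5 lists.

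Cldn6 (chr17:23679249-23682446, plus strand), a claudin of embryonic epithelia, had a peak that scored 18.87 in MEF WT and 13.5 in MEF KO. At day 5 the best score was 8.55 in WT with FLAG, 9.29 in WT with JMJD3 and 30.79 in KO with FLAG. At day 10 it was 20.99 in WT with FLAG and 13.55 in KO with FLAG. No peak was called in 3 of the 4 lists with JMJD3, day 5 WT being the exception. In 5 of the 7 lists a second peak was centred 3538 to 4038 bp downstream of the nearest Cldn6 TSS, beside the adjacent gene Cldn9, and in day 5 WT with FLAG that was the better-scoring one. Every list with a Cldn6 peak shared one with Cldn9 and with Tnfrsf12a within 5 kb, so the peak cannot be assigned to Cldn6 alone by distance.

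Crb3 (chr17:57059105-57065918, plus strand) had a peak over its downstream cluster of TSSs in all 10 lists, with starts that spanned 253 bp. It was the most fixed in position of the 3 genes marked throughout, Cldn7 spanning 535 bp and Ocln 741 bp. Its score was 55.94 in MEF WT and 45.75 in MEF KO. At day 5 it was 40.58 in WT with FLAG, 14.38 in WT with JMJD3, 27.3 in KO with FLAG and 23.67 in KO with JMJD3. The day 10 scores, in the same order, were 33.38, 17.29, 18.91 and 9.56. The Crb3 peak was shared with Slc25a23, a mitochondrial carrier gene within 5 kb, in 10 lists.

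Tjp3 (chr10:81273207-81291581, minus strand) had a peak within 5 kb of its TSSs in MEF WT alone, with a score of 24.07. That peak also lay within 5 kb of a TSS of Pip5k1c. A second peak lay inside the gene, 5.71 to 6.17 kb from the nearest TSS and so just beyond the distance searched. It was called in 9 of 10 lists. Its score was 112.21 in MEF WT and 26.52 in MEF KO. At day 5 it was 37.66 in WT with FLAG, 15.15 in WT with JMJD3, 41.32 in KO with FLAG and 19.72 in KO with JMJD3. At day 10 the scores were 12.89 in WT with FLAG, 14.73 in KO with FLAG and 7.18 in KO with JMJD3, and no peak was called in WT with JMJD3. The TSSs used were those of GENCODE basic transcripts. The full annotation, consulted after these values were seen, places starts of further Tjp3 transcripts at 81285769 and 81285781, and both KLF4 lists had a peak over them, at chr10:81285705-81286036 with FLAG and chr10:81285743-81286033 with JMJD3. The H3K27me3 peak and the nearer KLF4 peak were 143 to 608 bp apart. With the starts of all annotated transcripts, Tjp3 had a peak in 9 lists and the number of marked genes was 7 in MEF WT (15.5% of all genes) and 6 in MEF KO (10.9%). At day 5 it was 7 in WT with FLAG (15.6%), 7 in WT with JMJD3 (11.7%), 7 in KO with FLAG (14.5%) and 6 in KO with JMJD3 (13.9%), and the day 10 numbers, in the same order, were 6 (13%), 3 (8.79%), 5 (13.6%) and 5 (12.4%). The middle 200 bases of the KLF4 peak with FLAG (chr10:81285771-81285970, minus strand, read from GRCm38) are printed because they hold the start at 81285781. They are 73.5% G or C, with 1 E-box and 0 KLF-type strings.
Tjp3 internal: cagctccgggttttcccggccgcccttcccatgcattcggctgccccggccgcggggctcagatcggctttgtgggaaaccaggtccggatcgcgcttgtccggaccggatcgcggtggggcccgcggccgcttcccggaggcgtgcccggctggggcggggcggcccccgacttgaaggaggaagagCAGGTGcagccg

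**Figure D3:**
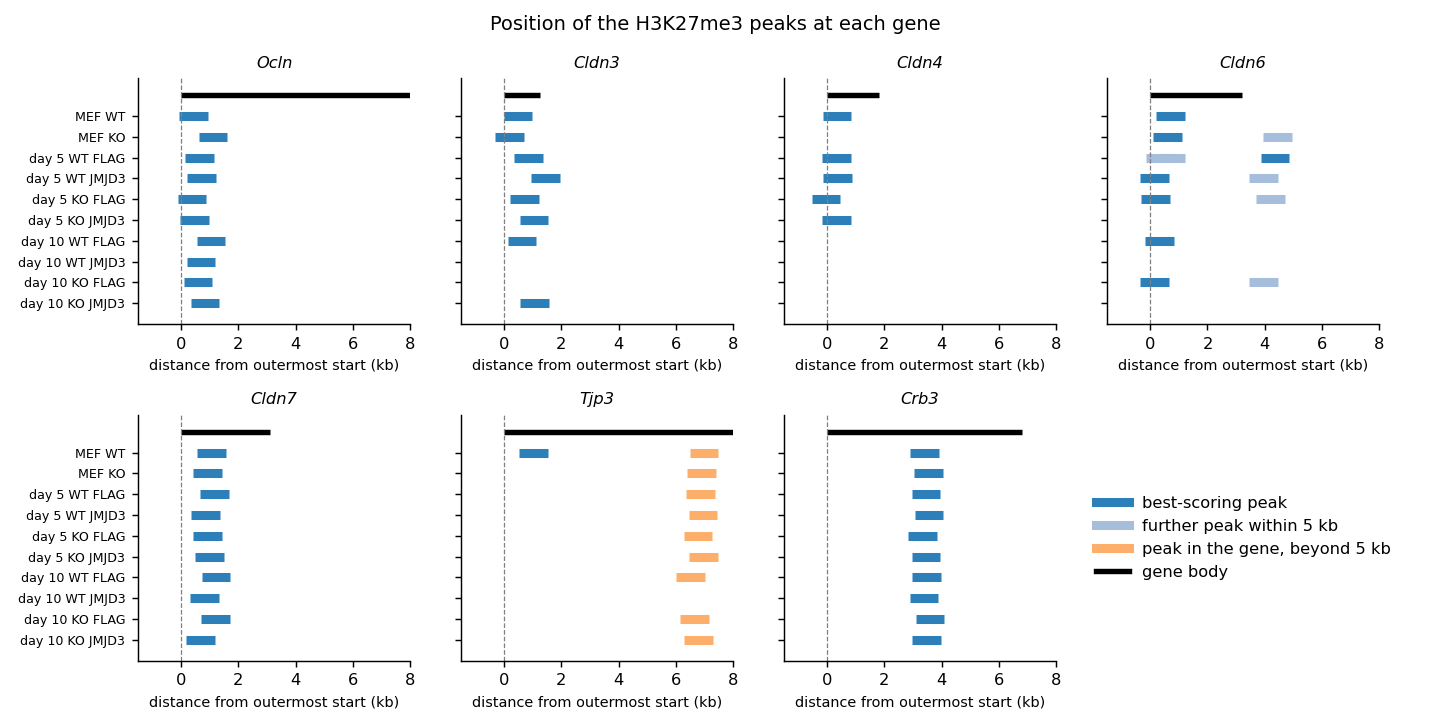
H3K27me3 peaks (bars) at the 7 genes with at least 1 peak within 5 kb of a TSS, by distance in kb from the outermost TSS along the gene's strand (x axis) and by library (y axis). Dark blue is the best-scoring peak, light blue a further peak within 5 kb, orange a peak in the gene beyond 5 kb, and black the gene. The orange bars at Tjp3 appear in 9 of the 10 libraries at nearly the same place, and the Crb3 bars line up within 253 bp.

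Exogenous JMJD3 was compared with the FLAG control in the 4 pairs of FLAG and JMJD3 libraries. Over these pairs the genes had 21 FLAG peaks within 5 kb, of which 4 were lost (called with FLAG and not with JMJD3), at Cldn6 in 3 pairs and Cldn3 in 1. In day 5 WT cells 0 of 6 FLAG peaks were lost, against 31.8% of all genes with a FLAG peak. In day 5 KO cells 1 of 6 was lost (20.5% of all genes), in day 10 WT cells 2 of 5 (41.3%) and in day 10 KO cells 1 of 4 (25.1%). With counts this small, 1 gene more or fewer sets the order in 3 of the 4 pairs. In day 5 KO cells 2 of 6 were lost, against 22.3% of all genes, when all lists were reduced to the 3045 best-scoring peaks. In the opposite direction, Cldn3 in day 10 KO cells was the one gene with a peak with JMJD3 and none with FLAG. The gained counts were 0 of 6 in day 5 WT (8.67% of all genes with a JMJD3 peak), 0 of 5 in day 5 KO (16.4%), 0 of 3 in day 10 WT (13.8%) and 1 of 4 in day 10 KO (18%).

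Where a gene had a peak in both libraries of a pair, its best peaks could be set side by side. These peaks overlapped in 16 of 17 cases. The exception was Cldn6 in day 5 WT cells, where they lay 3.2 kb apart. With both lists of a pair reduced to the length of the shorter one, 4 of 5 genes ranked lower with JMJD3 in day 5 KO cells, 3 of 3 in day 10 WT cells and 3 of 3 in day 10 KO cells, but 2 of 6 in day 5 WT cells. At day 10 the 3 genes were Ocln, Cldn7 and Crb3 in both genotypes. In day 5 KO cells the 4 include Cldn7, at -0.301 points. The share of all genes ranking lower at equal length is not given here. The median change in percentile, JMJD3 minus FLAG, was then -15.2 points in day 5 KO cells (-0.496 over all genes), -9.29 in day 10 WT cells (0.0328 over all genes) and -9.72 in day 10 KO cells (-0.369 over all genes). In day 5 WT cells it was 0.81 points (-1.15 over all genes). In whole lists the medians were -10.1, -13.7, -11.8 and -4.39 points in the same order (1.77, -6.67, -1.35 and -5.3 over all genes), so the direction in day 5 WT cells turned with list length. At equal length Cldn3 in day 5 KO cells differed by -70.3 points and Crb3 in day 10 KO cells by -36.1 points. Crb3 was lower with JMJD3 in all 4 pairs, with changes in WT cells of -21.9 points at day 5 and -9.33 at day 10, and in KO cells of -15.2 and -36.1. Ocln differed by -9.29 points in day 10 WT cells. The scores themselves, whose scale may differ between lists, were lower with JMJD3 for 5 of 6 genes in day 5 WT cells (74.7% of all genes with a peak in both), 3 of 5 in day 5 KO cells (31.1%), 3 of 3 in day 10 WT cells (70.4%) and 3 of 3 in day 10 KO cells (45.7%). KO cells that received JMJD3 carried the enzyme from the virus. With 1 library on each side, none of these differences can be set against the spread between replicates.

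The time course was read in the libraries without exogenous JMJD3. Of the 7 genes marked in MEF WT, 1 (Tjp3) had no peak within 5 kb at day 5 with FLAG, against 22.2% of all genes marked in MEF WT. At day 10 with FLAG 2 of 7 (Cldn4 and Tjp3) had none, against 36.6%. In KO cells 0 of 5 were missing at day 5 (15.2% of all genes) and 1 of 5, Cldn3, at day 10 (23.5%). For the 3 genes marked in all lists the path of the percentile differed. In WT cells from MEF to day 5 FLAG to day 10 FLAG, Ocln went 96.4, 93.7 and 69.5, Cldn7 went 98.8, 98.4 and 92.1, and Crb3 went 90.8, 84.8 and 93.5. In KO cells the values were 69.5, 92.2 and 79.4 for Ocln, 99.5, 99.5 and 93.3 for Cldn7 and 98, 79.6 and 77.8 for Crb3. Ocln thus had its lowest value at day 10 in WT cells and in MEFs in KO cells, while Crb3 was lowest at day 5 in WT and at day 10 in KO cells. Compared with MEFs at equal list length, the direction was the same for these 3 genes at both days in both genotypes, except for Cldn7 in KO cells at day 5, which differed by 0.0012 points in the whole lists and -0.17 at equal length.

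The genotypes were also compared without exogenous JMJD3. In MEFs 2 of 7 WT peaks, at Cldn4 and Tjp3, were not called in KO cells, against 35.6% of all genes. The percentiles of Ocln (96.4 in WT, 69.5 in KO) and Cldn3 (99.2 and 64) were lower in KO MEFs, whereas those of Crb3 (90.8 and 98) and Cldn7 (98.8 and 99.5) were higher. Cldn6 had percentiles of 66.5 and 63.5 in the whole lists, but 43.4 and 63.5 when both were reduced to 4113 peaks, so its direction turned with list length, whereas the other 4 genes kept theirs. At day 5 with FLAG 0 of 6 WT peaks were missing in KO cells (17.9% of all genes), and at day 10 with FLAG 1 of 5, Cldn3 (18.4%). At day 5 Cldn6, Cldn4 and Cldn3 ranked higher in KO than in WT cells with FLAG, with percentiles of 83.2 and 26.9 for Cldn6, 74.3 and 41.9 for Cldn4 and 76.1 and 62.9 for Cldn3. The Cldn6 values belong to different peaks, the TSS peak in KO and the downstream peak in WT cells. Peak by peak, the TSS peak was at 83.2 in KO and 24.4 in WT cells, and the downstream one at 38.1 and 26.9. Cldn7 was also higher in KO cells (99.5 and 98.4), while Ocln (92.2 and 93.7) and Crb3 (79.6 and 84.8) were lower. At equal length all 6 of these day 5 differences kept their direction. In these lists the genotypes did not order the genes in a single direction.

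KLF4 peaks were found in the gene or within 50 kb for 6 of 8 genes with FLAG (59.5% of all genes) and for 8 of 8 with JMJD3 (67.2%). JMJD3 positions were found for 5 of 8 genes with OSKM (55.6%) and for 3 of 8 with OSlowKM (14.1%), the latter being Marveld2, Cldn6 and Cldn7. Windows this wide take in many neighbours. Merging peak midpoints and positions within 400 bp gave 34 different sites around the 8 genes, of which 24 lay within 1 kb of the TSS of a gene outside the list. The nearest protein-coding TSS was that of one of the 8 genes for 3 sites, the KLF4 sites at Marveld2, Cldn7 and inside Tjp3. For the 9 sites with JMJD3 under OSKM and the 3 under OSlowKM it was that of a gene outside the 8 in each case.

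**Figure D4:**
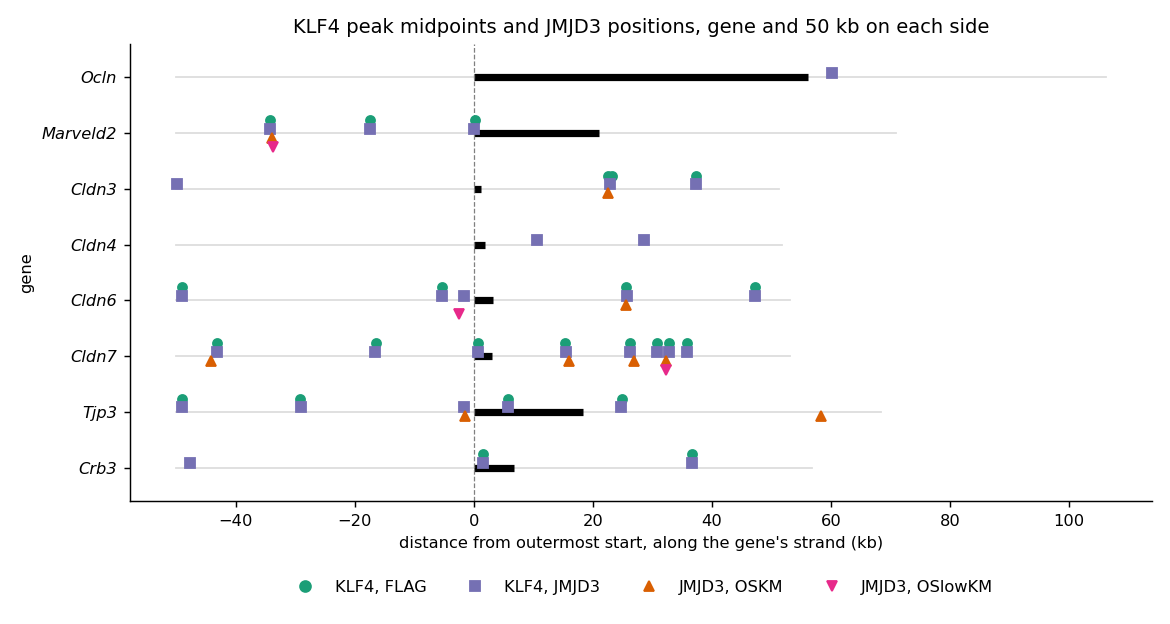
KLF4 peak midpoints (circles with FLAG, squares with JMJD3) and JMJD3 positions (upward triangles with OSKM, downward triangles with OSlowKM) around each of the 8 genes, by distance in kb from the outermost TSS along the gene's strand. Black bars are the genes and grey lines the window searched. KLF4 symbols of both lists sit at the start of Marveld2 and Cldn7 and inside Tjp3 and Crb3, and triangles lie away from the starts except at Tjp3 and Cldn6.

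Within 5 kb of a TSS, a distance chosen for these libraries after the data were seen, KLF4 was called at 3 of 8 genes with FLAG (Marveld2, Cldn7 and Crb3, 28% of all genes) and at 5 of 8 with JMJD3 (the same 3 genes with Cldn6 and Tjp3, 37.1%). At Crb3 both peaks lay in an intron, 1.52 and 1.55 kb from the nearest Crb3 TSS but 763 and 818 bp from that of Slc25a23. The Cldn6 peak seen with JMJD3 (chr17:23677432-23677651) was 1.71 kb upstream and 73 bp from the TSS of Tnfrsf12a, a TNF receptor family gene. The Tjp3 peak seen with JMJD3 (chr10:81293107-81293473) was 1.71 kb upstream, in an intron of Pip5k1c and 285 bp from its TSS. Just outside 5 kb lay the KLF4 peaks inside Tjp3, at 5.4 kb with FLAG and 5.38 kb with JMJD3, and those at Thoc6 near Cldn6, at 5.34 and 5.3 kb. Ocln, Cldn3 and Cldn4 had no KLF4 peak within 5 kb in either list. For Ocln the nearest one in the window was at Gtf2h2, 60 kb from the Ocln TSS, and for Cldn3 the nearest with FLAG was at Abhd11, 22.6 kb away. For Cldn4 it was in an intron of Mettl27, 10.6 kb away and called with JMJD3.

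JMJD3 positions within 5 kb of a TSS were found at Tjp3 with OSKM (1 of 8 genes, 21% of all genes) and at Cldn6 with OSlowKM (1 of 8, 3.66%). The Tjp3 position, 81293109, lay 1.53 kb upstream of Tjp3, at the edge of the KLF4 peak called with JMJD3 at Pip5k1c. The Cldn6 position, 23676681, lay 2.57 kb upstream in an intron of Tnfrsf12a. Neither fell on an H3K27me3 peak near a TSS of the 8 genes. Of the 34 sites, 23 had KLF4 in both lists (35.2% of all sites of the series), 6 with JMJD3 alone (21%), 0 with FLAG alone (6.38%) and 5 were JMJD3 positions without KLF4 (37.3%). JMJD3 accompanied 4 of the 23 shared KLF4 sites, whereas 37.6% of such sites had it over the whole series. It accompanied 1 of the 6 KLF4 sites seen with JMJD3 alone, against 25.9% over the series. These counts depend on the merging distance, since sites with both proteins numbered 3 within 200 bp and 9 within 1000 bp. The shares over the series at those distances are not given here. The 5 sites with both proteins lay at or near Ak6 and Rad17 (34 kb from Marveld2), Abhd11 (22.8 kb from Cldn3), 1520401A03Rik (25.2 kb from Cldn6), Phf23 (31.9 kb from Cldn7) and Pip5k1c (1.62 kb from Tjp3).

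Promoter sequence was compared over the 13 RefSeq promoter windows of the 8 genes, all 8 genes having a match. Each of the 8 genes had the string CAGGTG, searched on both strands, in at least 1 window, and 12 of 13 windows held it, against 20.2% of all 32851 windows. By gene, 22.2% of 16522 protein-coding genes in the table had it in a window, and 37% of those with at least 2 windows. In 5 of the 8 genes 1 window held 2 or more copies, against 3.26% of protein-coding genes. Among all windows with a GC content at or above the lowest of the 13 (45.3%), 22.2% held the string. The windows of 1 gene can overlap and share a copy. Of the 16 different copies, 4 lay at the end of an annotated exon, where these letters can belong to a splice donor, at Ocln, Marveld2, Cldn6 and Crb3. The copy of Marveld2 was its sole one, while the other 3 genes also had copies elsewhere. The E-box nearest to a RefSeq transcript start is printed for each gene in gene direction, with up to 12 bases on each side, because this string was shared by all of them. Capitals mark CAGGTG or its reverse complement CACCTG.
Ocln, chr13:100552694-100552723, minus strand: ccatcggagtttCAGGTGaatgggtcaccg
Marveld2, chr13:100616911-100616940, minus strand: ccggcggccgcgCAGGTGagtggggccgcg
Cldn3, chr5:134986233-134986262, plus strand: caaagccacaggCAGGTGcaggggcagtct
Cldn4, chr5:134946906-134946935, minus strand: cctttcttgttgCAGGTGcaggcaggaaag
Cldn6, chr17:23679393-23679414, plus strand: cagtctcttttgCAGGTGagcc
Cldn7, chr11:69965352-69965381, plus strand: agacttccggttCAGGTGagtgtcccttca
Tjp3, chr10:81291267-81291296, minus strand: cacaaaccctccCACCTGcaggccggcctc
Crb3, chr17:57062214-57062243, plus strand: gcgctctttgccCAGGTGggtgactaaact

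**Figure D5:**
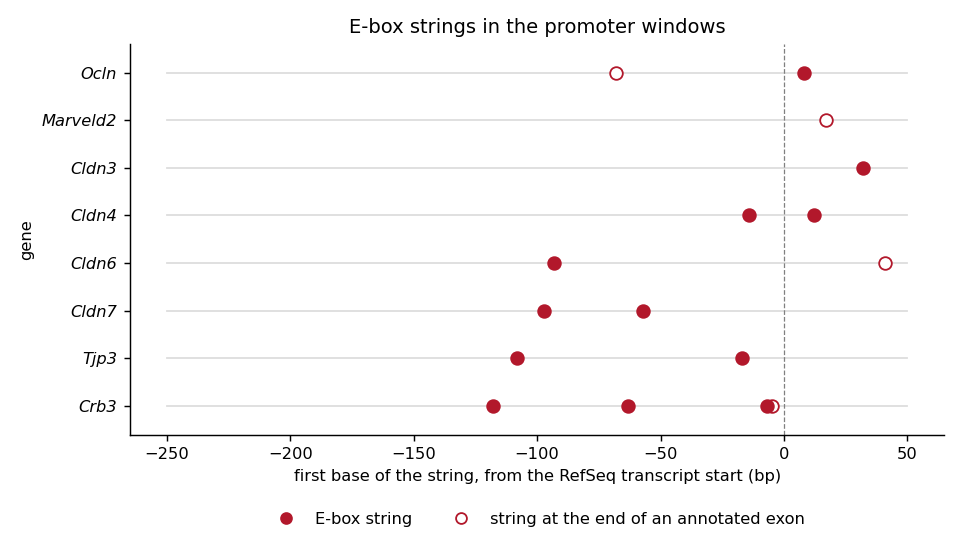
Position of the 16 copies of CAGGTG or CACCTG in the RefSeq promoter windows of the 8 genes, in bp from the transcript start of the window (x axis, 0 the start, negative upstream). Open circles mark copies that end an annotated exon. All 16 copies lie between 118 bp upstream and 41 bp downstream.

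The other strings were less common. CCACNCCC occurred in 7 of the 13 windows, at Ocln, Marveld2, Cldn3, Tjp3 and Crb3, against 17.6% of all windows. Both windows of Marveld2 overlap and hold the same copy, as do both of Crb3. By gene it occurred at 5 of 8, and the share of all genes is not given here. TGANTCA, the AP-1 string, occurred in the Cldn4 window alone (7.81% of all windows), and CATTGT, the SOX string, in 0 (12.6%). A match is a string of letters and not evidence of binding. In the middle 200 bases of the KLF4 peaks around the 8 genes, CCACNCCC occurred in 11 of 24 with FLAG (35.5% of all FLAG peaks) and in 14 of 29 with JMJD3 (33.6%). CAGGTG occurred in 7 of the 24 (12.6%) and in 4 of the 29 (12.9%). Around the 9 JMJD3 positions of OSKM cells, CCACNCCC occurred in 1 (14.6% of all positions). The best H3K27me3 peaks of the 8 genes were richer in CpG than those of all marked genes, with medians of observed over expected CpG of 0.612 to 0.718 by library, against 0.491 to 0.578 over all genes with a peak.

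A further list of 35 tight junction and polarity genes, 34 of them in the annotation, was counted in the same way. In MEF WT 11 of the 34 had a peak (14.6% of all genes) and in MEF KO 6 (10.3%). At day 5 the counts were 9 in WT with FLAG (14.7%), 5 in WT with JMJD3 (11%), 10 in KO with FLAG (13.7%) and 5 in KO with JMJD3 (13%). At day 10 they were, in the same order, 4 (12.1%), 3 (8.26%), 9 (12.8%) and 5 (11.7%). The peak of 4 of 9 genes was lost with JMJD3 in day 5 WT cells (31.8% of all genes), of 6 of 10 in day 5 KO (20.5%), of 2 of 4 in day 10 WT (41.3%) and of 4 of 9 in day 10 KO cells (25.1%). In the opposite direction, Cldn11 in day 5 KO cells (16.4% of all genes) and Esam in day 10 WT cells (13.8%) had a peak with JMJD3 and none with FLAG. These counts include Cldn9, whose peak is that of Cldn6 and which was lost in 3 pairs. Marveld3, the third member of the occludin and tricellulin family, had a peak in MEF WT (74.14), MEF KO (16.15) and the 4 FLAG lists (at day 5, 16.36 for WT and 11.19 for KO cells, and at day 10, 9.16 and 9.43), and in 0 of the 4 JMJD3 lists. Marveld3 was named after its values were seen, and the share of all genes with this pattern is not given here. Cldn5, a claudin of blood vessel endothelium, and Cldn23 had a peak in all 10 lists, and Tjp1, a relative of Tjp3, in none.

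The genes most like each one in their profile of percentiles over the 10 lists, leaving out genes that share a peak, were sought among all protein-coding genes. Ocln was closest to Wnt9b, differing by 4.12 points per list on average, then to Gfra3 (5.95) and Kit (6.14). Cldn7 was closest to Kl (2.26 points), then to Ess2 and Gsc2, which tied at 2.57. Crb3 was closest to Epas1 (8.49), Baiap3 (9.35) and Creg2 (9.41). Cldn3 was closest to Fgfr3 (10.9), then to Epor and Pdzrn4 (13.1 each). The 3 closest to Cldn4 included Lyzl6 (5.3) and Zbtb16 (6.63), and those to Cldn6 included Rbm20 (10.1) and Epn3 (11.3). None of the 8 tight junction genes was among the 3 closest to another. Only 3 places were open among all protein-coding genes, and Marveld2 and Tjp3 were not searched from, so this says little about likeness.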

How the data were processed

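H3K27me3, KLF4 and FLAG-tagged JMJD3 peak lists of 14 mouse samples were used, and 6 samples (4 inputs, 2 for H3K27ac) were not used here. According to the study's methods and processing notes, reads were aligned to mm10 with bowtie2 (the notes name version 2.2.0), DFilter called the H3K27me3 peaks of each library, and MACS2 was used for both proteins. The H3K27me3 samples had a Drosophila spike-in, and the study's methods scaled the mouse H3K27me3 reads by the mapped Drosophila reads. Whether this scaling entered peak calling was not given in the sources used here, so a score or a missing peak is not an amount of the mark. The deposited H3K27me3 intervals are 1000 bp wide and carry a score between 6.56 and 200, on a scale not given. They were ranked within a list, and scores set side by side between lists are given beside the share over all genes. The deposited KLF4 intervals and 1 bp JMJD3 positions carry no score.

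A peak counted for a gene when its nearest base lay within 5 kb of the TSS of a GENCODE M21 basic transcript, or within 50 kb of the gene for KLF4 and JMJD3. Midpoints within 400 bp were merged into sites, the distance the study used. Strings were matched on both strands, without mismatches, in RefSeq promoter windows of 300 bases and in 200 bases centred on each site. Sequence came from RefSeq and GRCm38.p6, the build of mm10, and the 13 promoter windows of the genes were identical to it. The text names the 8 genes, their neighbours within 5 kb of a peak, a further list of 35 genes by counts, and for each gene with a peak in at least 3 lists the 3 genes closest in percentile profile (a gene without a peak counted as 0). Some genes that this rule names are not reported here. The genes named from the list of 35 (Marveld3, Cldn5, Cldn23, Cldn11, Esam and Tjp1) and the neighbours of KLF4 and JMJD3 sites were chosen after their values were seen. The genes, lists and strings were chosen with earlier results of these data known.

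Each group had 1 library, so no test was made. Alternatives covered distance, TSS set, score threshold, list length, window and merging. Functions were tested on simulated data. Python 3.11.15, numpy 2.4.6, pysam 0.24.0, matplotlib 3.10.9 and samtools 1.23.1 were used.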

Additional observations from a re-analysis of the deposited data

Results flagged for a closer look

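In 4 genes the difference between JMJD3 and FLAG went in opposite directions in WT and KO cells. The difference between the genotypes was not tested, because each group had 1 library. Opposite directions were common, since 41.6% of the 1978 genes with a peak in all 4 day 5 libraries had percentile changes of opposite sign in WT and KO cells, 31.5% being lower in WT and higher in KO cells, as Ocln was, and 10.1% the reverse, as Cldn7 was. At day 10 the share was 48.3% of 1380 genes. Cldn3 at day 10 was called in WT cells in the FLAG list alone (score 12.2), and in KO cells in the JMJD3 list alone (score 8.4). Both scores lay in the lower part of the range for this gene, whose highest score was 130.36. For Cldn6 at day 5 the percentile changed by 8.44 points with JMJD3 in WT cells, whereas in KO cells a peak was called in the FLAG list alone (score 30.79). The WT change is between the downstream peak with FLAG and the TSS peak with JMJD3. The TSS peak was at percentiles 24.4 and 35.3 and the downstream one at 26.9 and 12. For Ocln at day 5 the percentile changed by -0.556 points with JMJD3 in WT cells and by 2.23 points in KO cells. For Cldn7 at day 5 it changed by 0.0298 points in WT cells and by -0.197 points in KO cells. The Cldn7 score differed the other way, 105.46 with FLAG and 86.23 with JMJD3 in WT cells and 107.85 and 190.33 in KO cells, and all 4 percentiles were 98.4 or above, so its direction depends on the measure. With the 4 day 5 lists reduced to 5064 peaks, Ocln changed by 1.15 points in WT and 1.5 points in KO cells, so not in opposite directions, and Cldn7 by 0.474 and -0.336 points.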

How the results depend on the processing

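Of 120 alternative values for counts of genes and sites and for median changes, 103 stayed within 1.5 times the reported value, 16 did not and 1 reversed. With both lists of a pair reduced to equal length, chosen after seeing the data, the median percentile change with JMJD3 was 0.81 points in day 5 WT cells, against -4.39, and -15.2 in day 5 KO cells, against -10.1. No paired test was made over the 4 pairs of FLAG and JMJD3 libraries. Each group had 1 library, so no replicate could be left out. Keeping the better-scoring part of each list, at its median, left 3 of 8 genes marked in day 5 WT with JMJD3 (7.44% of all genes) and 2 in day 10 KO with JMJD3 (7.84%). It gave 1 lost peak of 4 in day 5 WT (33%), 2 of 6 in day 5 KO (18.7%) and 2 of 4 in day 10 KO cells (27.4%). With all lists reduced to 3045 peaks, 2 of 6 were lost in day 5 KO cells (22.3%). Within 10 kb of the gene, JMJD3 positions were found at 1 gene with OSKM (34% of all genes) and 1 with OSlowKM (7.1%), and within 100 kb at 8 with OSKM (69.8%). Within 5 kb of a TSS, chosen after seeing the data, KLF4 peaks were found at 3 genes in FLAG cells and 5 in JMJD3 cells, and JMJD3 positions at 1 gene with OSKM and 1 with OSlowKM. Sites with both KLF4 and JMJD3 numbered 3 when merging within 200 bp and 9 within 1000 bp, against 5. The share over all sites at these merging distances is not given here. The alternatives changed the peaks kept, the window searched or the merging distance, and what moved each value was not tested. Peak height, read depth and the amount of the mark cannot be read from the lists, so a peak missing from a list may lie just under its threshold. The starts of all annotated transcripts, also chosen after seeing the data, kept every count of marked genes within 1.5 times and added Tjp3 in 8 lists.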
